A study of Mus musculus with 5 samples.

Results

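The 35 genes described here act in mitosis: cyclins and the CDK1 switch, mitotic kinases, the spindle checkpoint, kinesins, centromere and kinetochore proteins, midzone and cytokinesis proteins, and proteins of chromosome structure. They were chosen by name from a list of mitosis and spindle genes. No rule on their measured values was used, but earlier results of these data were known. Each was found among the 21372 gene symbols of the tables. All 35 were at 1 scaled unit or more in all 5 libraries, so none was lost to the filter on low values.

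RNA-seq was made from mouse embryonic fibroblasts, connective tissue cells grown from C57BL/6 E14.5 embryos and sampled at passage 30, with 1 library per group. Line M, labelled as Meis1 overexpressing, line P, labelled as Prep1 overexpressing, line MP, labelled as overexpressing both, and line EV, infected with an empty vector, were all Prep1 hypomorphic, so the controls of the M, P and MP lines carried the same allele. WT was labelled Prep1 wild-type and no vector is named for it. Its growth protocol names Prep1 hypomorphic embryos as for the other lines, and its differences from EV in genotype, line and infection cannot be told apart. Meis1 and Prep1 are homeobox transcription factors of the TALE class. With 1 library per group no difference below has a replicate check and none was tested.

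Cells enter mitosis when cyclin B bound to the kinase CDK1 becomes active. Aurora and Polo-like kinases, kinesin motors and kinetochores then build the spindle and attach chromosomes, and the spindle checkpoint holds back the anaphase-promoting complex (APC/C) until attachment is complete. Most of these genes are transcribed in late cell cycle phases through promoters with CCAAT boxes and a cell cycle homology region. In a growing culture their RNA therefore marks dividing cells. In bulk RNA, fewer dividing cells and less RNA per dividing cell cannot be told apart.

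Promoter windows are shown for Top2a, Mad2l1, Anln, Cdc20 and Mki67, whose ratio of highest to lowest level across the libraries was among the widest (1.55 to 1.78), for Plk1, a central mitotic kinase, and for Cdc25b, which had another order of the libraries. Each window runs 250 bases before to 50 after a RefSeq start site (RefSeq, build GRCm38.p6, not the mm9 build of the expression tables). Capitals mark TTTGAA or TTCGAA, the letters of the cell cycle homology region, and CCAAT, each on either strand, so that TTCAAA and ATTGG are also in capitals. The windows are chr11:99024140-99024439 (minus strand), chr6:66534971-66535270 (plus strand), chr9:22389157-22389456 (minus strand), chr4:118437294-118437593 (minus strand), chr7:135716330-135716629 (minus strand), chr7:122159185-122159484 (plus strand) and chr2:131186698-131186997 (plus strand).
Top2a: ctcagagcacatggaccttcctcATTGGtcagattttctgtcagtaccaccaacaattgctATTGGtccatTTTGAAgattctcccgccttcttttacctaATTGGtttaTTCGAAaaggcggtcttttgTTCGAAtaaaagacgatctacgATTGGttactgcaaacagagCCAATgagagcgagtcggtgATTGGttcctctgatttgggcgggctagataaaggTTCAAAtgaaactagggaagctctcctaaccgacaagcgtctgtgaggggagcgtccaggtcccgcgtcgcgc
Mad2l1: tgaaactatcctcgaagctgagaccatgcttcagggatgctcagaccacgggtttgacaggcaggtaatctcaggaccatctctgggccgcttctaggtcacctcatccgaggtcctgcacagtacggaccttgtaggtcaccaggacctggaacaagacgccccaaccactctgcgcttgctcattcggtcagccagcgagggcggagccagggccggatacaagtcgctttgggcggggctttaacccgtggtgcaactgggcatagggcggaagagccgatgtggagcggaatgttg
Anln: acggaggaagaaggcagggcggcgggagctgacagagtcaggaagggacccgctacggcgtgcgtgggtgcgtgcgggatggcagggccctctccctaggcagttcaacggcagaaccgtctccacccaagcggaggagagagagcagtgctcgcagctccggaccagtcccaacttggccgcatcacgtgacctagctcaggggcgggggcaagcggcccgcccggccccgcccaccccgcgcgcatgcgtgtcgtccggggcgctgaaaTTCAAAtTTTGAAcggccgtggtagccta
Cdc20: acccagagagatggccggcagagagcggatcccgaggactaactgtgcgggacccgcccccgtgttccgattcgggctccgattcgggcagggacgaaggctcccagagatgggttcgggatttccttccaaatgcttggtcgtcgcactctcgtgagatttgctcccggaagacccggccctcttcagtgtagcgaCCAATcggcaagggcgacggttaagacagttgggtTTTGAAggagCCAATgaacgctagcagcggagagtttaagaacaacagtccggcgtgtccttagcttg
Mki67: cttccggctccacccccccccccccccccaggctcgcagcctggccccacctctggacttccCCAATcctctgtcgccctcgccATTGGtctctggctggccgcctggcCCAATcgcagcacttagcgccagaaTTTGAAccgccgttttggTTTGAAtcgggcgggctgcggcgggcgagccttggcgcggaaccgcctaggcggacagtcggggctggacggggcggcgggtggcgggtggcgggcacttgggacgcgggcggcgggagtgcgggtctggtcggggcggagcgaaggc
Plk1: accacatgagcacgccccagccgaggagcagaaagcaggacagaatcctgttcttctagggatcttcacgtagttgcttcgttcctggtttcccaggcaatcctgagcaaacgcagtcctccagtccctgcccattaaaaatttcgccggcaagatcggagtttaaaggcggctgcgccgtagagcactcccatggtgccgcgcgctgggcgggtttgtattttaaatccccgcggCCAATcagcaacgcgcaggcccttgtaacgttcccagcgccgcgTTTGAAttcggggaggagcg
Cdc25b: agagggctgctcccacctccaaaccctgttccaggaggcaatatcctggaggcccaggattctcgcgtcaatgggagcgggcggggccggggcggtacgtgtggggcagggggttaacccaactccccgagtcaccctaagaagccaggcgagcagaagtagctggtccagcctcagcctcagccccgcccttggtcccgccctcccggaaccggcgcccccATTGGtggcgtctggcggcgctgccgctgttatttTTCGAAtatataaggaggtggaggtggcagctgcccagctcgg

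Of the 35 genes, 29 matched a RefSeq promoter entry, with 31 windows. TTTGAA or TTCGAA was in the windows of 23 of these 29 genes and in 80.6% of their windows, against 19.2% of all 32851 windows of the same length. CCAAT was also in the windows of 23 of the 29 genes and in 80.6% of their windows, against 37.4% of all windows. Both were in the windows of 20 genes (71.0% of the members' windows, 7.52% of all windows). The median GC content was 59.0% in the members' windows and 52.7% over all windows. The Top2a window held 6 CCAAT matches, and the Mki67 window held 3. The Mad2l1 window held neither motif, and the Anln window held no CCAAT. The Cdc25b window held both. Whether the motifs go with the level or the order of the libraries was not tested.

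The letters TGACAG, a core sequence bound by TALE factors such as Meis1 and Prep1, were in 16.1% of the members' windows, those of Ect2, Mad2l1, Anln and Top2a, against 19.2% of all windows. TGATTGA, letters of the joint site of Pbx with Prep or Meis, was in none of the 31 windows and in 2.70% of all windows. The E2F letters TTCCCGC or TTTGGCG were in none of the members' windows and in 5.99% of all windows. All motifs were searched on both strands and the listed motifs do not overlap one another at the positions printed. A match is not a binding site, and no match says only that these letters are not in the window.

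Levels are given in scaled units: the authors' FPKM, divided so that the upper quartile of single-gene loci is 10 in each library. These were the 22338 loci that reached 1 FPKM in some library. Among the 11866 genes kept for the shares below, 10 is near the middle: Cdc25b, at 10.0 in MP, had percentile 53.0. Of these genes, 6902 reached 10 in some library. The deposited upper quartiles were 429 FPKM in M, 11.6 in P, 9.63 in MP, 157 in EV and 12.2 in WT, so the unscaled values of different libraries could not be set side by side. Read depth is unknown. The values were compressed: of loci at 5 scaled units or more, 96.6% to 98.9% per library lay between 5 and 20, so folds between well-expressed genes are small. Meis1 had 16.8 scaled units in M, 8.86 in P, 15.4 in MP, 8.32 in EV and 12.4 in WT. Pknox1, the gene that encodes Prep1, had 3.25 in M, 0.554 in P, 0.569 in MP, 2.16 in EV and 11.0 in WT. In the libraries labelled P and MP it was thus at 25.6% and 26.3% of EV, against their labels, and both are named below by label only. Of 8 fibroblast markers, 7 (all but Lum) were at 5 scaled units or more in every library, while the epithelial, endothelial and skeletal muscle markers stood at 1.16 or less. Of the blood and macrophage markers measured, Csf1r alone passed 1 scaled unit, with 3.63 in M, 3.54 in P, 3.71 in MP, 1.89 in EV and 1.17 in WT. Of the neuron and glia markers Tubb3 alone did, with 5.05 in M, 9.23 in P, 7.54 in MP, 6.502 in EV and 12.0 in WT. The summed level of the 8 fibroblast markers was 99.4 in M, 90.9 in P, 102.4 in MP, 114 in EV and 81.1 in WT. P and WT were below the other 3 libraries in 5 of the 8. Fn1, fibronectin, chosen after its values were seen, had 16.1 in M, 11.0 in P, 15.0 in MP, 18.8 in EV and 10.8 in WT. The median log2 ratio of the fibroblast markers was -0.36 in P over EV (6 of 7 kept were lower in P) and 0.46 in EV over WT, at least as far from 0 as those of the 35 genes given below. The part of these markers in the results below was not tested. Sensory receptor genes of the Olfr and Vmn families, which fibroblasts are not known for, were above 0 for 70.0% of 1422 genes in M, 10.9% in P, 12.7% in MP, 99.9% in EV and 17.1% in WT.

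The mitosis genes were well expressed in every library, and stood lowest in WT and next lowest in the library labelled P. Their median level was 14.0 scaled units in M, 12.5 in P, 14.6 in MP, 15.4 in EV and 11.4 in WT. Their levels ranged over 8.10 to 18.3 in M, 6.73 to 19.2 in P, 9.05 to 18.9 in MP, 10.3 to 19.9 in EV and 5.93 to 20.03 in WT. The lowest member was Kif20a in all 5 libraries. The median percentile among 11866 genes was 80.5 in M, 77.5 in P, 84.1 in MP, 84.9 in EV and 69.5 in WT.

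**Figure D1:**
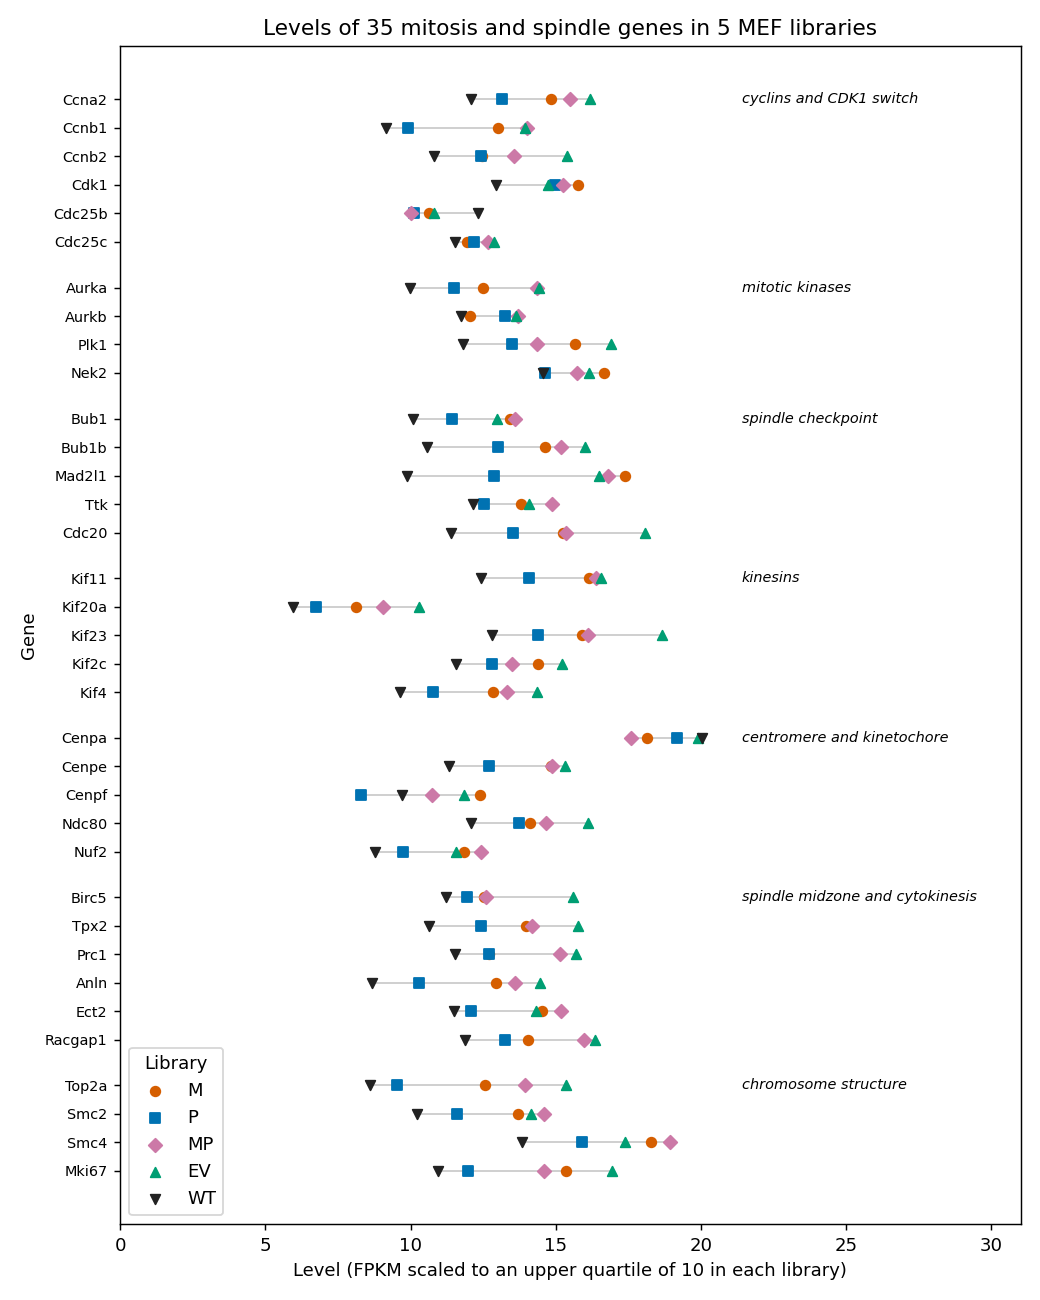
Level of each of the 35 genes (vertical axis, by function) in scaled units (horizontal axis) in the M, P, MP, EV and WT libraries; each marker is 1 library and the grey line spans the 5. In 29 of 35 genes the WT and P markers lie left of the other 3, with Cdk1, Cdc25b, Cdc25c, Aurkb, Cenpa and Prc1 as the exceptions.

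P and WT were both below M, MP and EV in 29 of 35 genes, against 32.8% of all 11866 genes kept. Among the 6902 genes at 10 scaled units or more in any library, a closer match in level, the share was 49.5%. WT was the lowest library in 32 of 35 genes, against 41.3% of all genes and 56.9% of those at 10 or more. M was the highest in 4 genes (16.6% of all genes), MP in 8 (15.4%), EV in 21 (25.8%) and WT in 2 (30.8%). The count of genes with P and WT lowest was 31 with levels scaled to the median, against 29.9% of all genes on that scale. It was 18 after quantile normalisation, against 25.03% of all genes on that second scale. The shares among genes at 10 or more were not counted on these other scalings. The libraries' upper ranges followed a similar order: the ratio of the 99th percentile to the upper quartile was 2.05 in M, 1.84 in P, 1.96 in MP, 2.10 in EV and 1.75 in WT. The part of this difference in range in the members' order was not tested beyond the values on the other scalings.

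**Figure D2:**
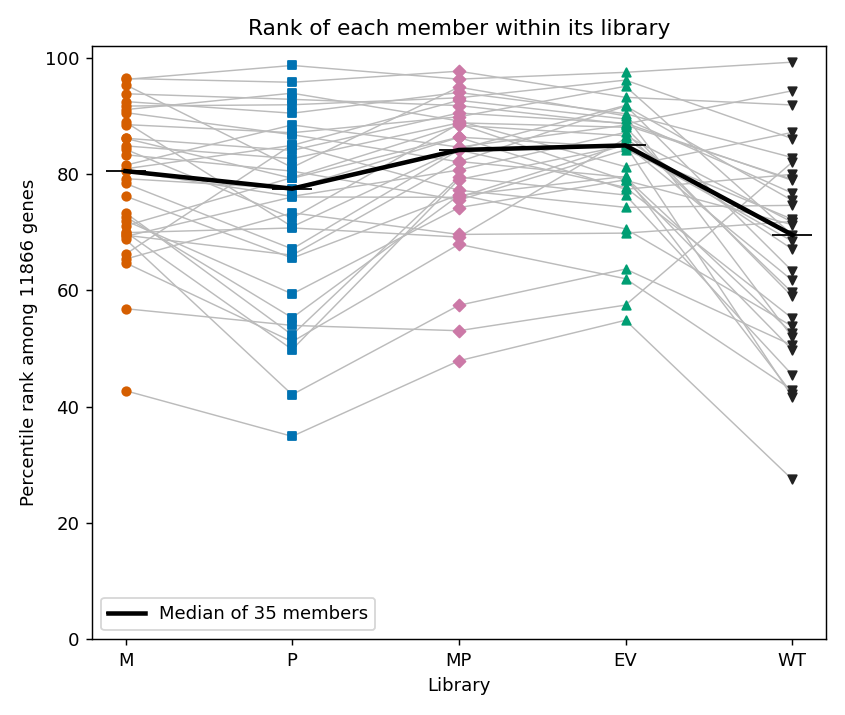
Percentile rank of each of the 35 genes among 11866 genes (vertical axis) within the M, P, MP, EV and WT libraries (horizontal axis); grey lines join the points of 1 gene and the black line joins the medians. The median is 84.1 in MP and 84.9 in EV and 69.5 in WT.

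The cyclins and the CDK1 switch were split. Ccnb1, cyclin B1, the mitotic partner of CDK1, had 13.0 scaled units in M, 9.91 in P, 14.0 in MP, 13.9 in EV and 9.14 in WT. Ccnb2, cyclin B2, had 12.5 in M, 12.4 in P, 13.5 in MP, 15.4 in EV and 10.8 in WT, and Ccna2, cyclin A2, likewise had WT and P lowest. P and WT were thus the low libraries for all 3 cyclins, by a wide gap for Ccnb1 and by a narrow one for Ccnb2.

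Cdk1, the kinase itself, had 15.8 scaled units in M, 15.0 in P, 15.2 in MP, 14.7 in EV and 13.0 in WT. Its levels in the 4 hypomorphic lines were close together, with WT below. Cdc25b, a phosphatase that removes the inhibitory phosphates of CDK1, ran the other way, with 10.6 in M, 10.1 in P, 10.0 in MP, 10.8 in EV and 12.3 in WT. Cdc25c, a phosphatase of the same family, varied least of the 35, with its highest level 1.11 times its lowest.

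Of the 4 mitotic kinases, Plk1, Polo-like kinase 1, which acts in centrosome maturation and spindle assembly, had 15.7 scaled units in M, 13.5 in P, 14.3 in MP, 16.9 in EV and 11.8 in WT. Aurka, the Aurora kinase of spindle poles, had 12.5 in M, 11.5 in P, 14.4 in MP, 14.4 in EV and 9.97 in WT. MP and EV were level for Aurka, and M stood between them and P. Aurkb, the Aurora kinase of the chromosomal passenger complex, had 12.0 in M, 13.3 in P, 13.7 in MP, 13.6 in EV and 11.7 in WT, so that M rather than P was next to WT. Nek2, a kinase of centrosome separation, spanned only 1.14 times from lowest to highest.

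All 5 checkpoint genes had P and WT below the other 3 libraries. Mad2l1, which encodes the checkpoint protein Mad2 that inhibits the APC/C, had 17.4 scaled units in M, 12.9 in P, 16.8 in MP, 16.5 in EV and 9.89 in WT. M, MP and EV were close together, P stood well below them and WT lower again. Cdc20, the APC/C activator that Mad2 binds, had 15.2 in M, 13.5 in P, 15.4 in MP, 18.1 in EV and 11.4 in WT, with EV apart at the top. Bub1b, which encodes BubR1 of the same inhibitory complex, had 14.6 in M, 13.0 in P, 15.2 in MP, 16.0 in EV and 10.6 in WT. Bub1, a kinetochore kinase, and Ttk, the kinase Mps1 that starts the checkpoint, had their highest level in MP.

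All 5 kinesins also had P and WT lowest. Kif20a, a motor of the central spindle and the least expressed member, had 8.10 scaled units in M, 6.73 in P, 9.05 in MP, 10.3 in EV and 5.93 in WT. The libraries were spread out for Kif20a with no pair together. Kif11, the motor that pushes spindle poles apart, had 16.1 in M, 14.1 in P, 16.4 in MP, 16.6 in EV and 12.4 in WT, with M, MP and EV close together. Kif23, part of centralspindlin, had 15.9 in M, 14.4 in P, 16.1 in MP, 18.6 in EV and 12.8 in WT. Kif4, a chromosome-bound motor, and Kif2c, a motor that shortens microtubules at centromeres, were highest in EV.

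In the centromere and kinetochore group, Cenpf, a large protein of the outer kinetochore, was the only member lowest in P, with 12.4 scaled units in M, 8.30 in P, 10.7 in MP, 11.8 in EV and 9.71 in WT. Nuf2, a subunit of the NDC80 complex that binds microtubules, had 11.8 in M, 9.73 in P, 12.4 in MP, 11.5 in EV and 8.78 in WT. Ndc80, of the same complex, and Cenpe, a kinetochore motor, were highest in EV. Cenpa, the histone H3 variant that marks centromeres, was among the most abundant members and did not share the order: it had 18.1 in M, 19.2 in P, 17.6 in MP, 19.9 in EV and 20.03 in WT.

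Among the 6 midzone and cytokinesis genes, Anln, which encodes the contractile ring protein anillin, had 12.9 scaled units in M, 10.3 in P, 13.6 in MP, 14.4 in EV and 8.68 in WT. Prc1, which bundles microtubules of the midzone, had 12.7 in M, 12.7 in P, 15.1 in MP, 15.7 in EV and 11.5 in WT. M and P were level for Prc1, well below MP and EV. Birc5, which encodes survivin of the chromosomal passenger complex, had 12.5 in M, 11.9 in P, 12.6 in MP, 15.6 in EV and 11.2 in WT. EV alone was high for Birc5, a pattern that Cdc20 and Kif23 also showed in part. Tpx2, an activator of Aurora A, and Racgap1, the partner of Kif23, were highest in EV, and Ect2, which activates RhoA at the cleavage furrow, was highest in MP.

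The 4 genes of chromosome structure all had P and WT lowest. Top2a, the topoisomerase that untangles sister chromatids, had 12.6 scaled units in M, 9.53 in P, 13.9 in MP, 15.4 in EV and 8.61 in WT. Its highest level was 1.78 times its lowest, the widest ratio among the 35 genes. Mki67, which encodes the proliferation marker Ki-67, had 15.3 in M, 12.0 in P, 14.6 in MP, 16.9 in EV and 10.9 in WT. Smc4, a core subunit of condensin, had 18.3 in M, 15.9 in P, 18.9 in MP, 17.4 in EV and 13.8 in WT. Smc2, its partner, had 13.7 in M, 11.6 in P, 14.6 in MP, 14.1 in EV and 10.2 in WT. Both condensin cores were highest in MP, while Top2a and Mki67 were highest in EV.

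The first comparison asked how the library labelled P differed from EV. Log2 ratios are log2((level + 1)/(level + 1)), which understates the change of low genes. The median over members was -0.28, against -0.05 over the 11163 genes kept. Lower levels in P were seen for 34 of 35 members, against 58.4% of all genes and 73.5% of genes at 10 scaled units or more in 1 of the 2 libraries. Top2a (-0.64), Kif20a (-0.55), Mki67 (-0.47), Cenpf (-0.47) and Anln (-0.45) had the lowest ratios. Top2a was the only member past 1.5-fold, as were 5.14% of all genes in that direction, and no member was 2-fold apart in any comparison, where 15.6% of all genes were in at least 1 of the 9. Cdk1 (0.02) was the exception, and Aurkb (-0.03), Cenpa (-0.05), Cdc25c (-0.07) and Cdc25b (-0.09) were near 0.

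The size of this difference depended on the scaling. After quantile normalisation 26 members were lower in P and the members' median was -0.08, against 0.01 for all genes. With levels scaled to the median, 33 members were lower in P but the median of all genes was itself at -0.30, below the members' -0.26. The share of all genes lower in P was counted on neither of these scales.

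In M, labelled as Meis1 overexpressing, the members differed little from EV. Their median log2 ratio was -0.12, against -0.01 for all 11144 genes kept. The level was lower in M for 27 of 35 members, against 53.5% of all genes and 58.8% of genes at 10 or more. The lowest ratios were those of Kif20a (-0.31), Birc5 (-0.29), Ccnb2 (-0.28), Prc1 (-0.28) and Top2a (-0.27). The highest were those of Cdk1 (0.09), Mad2l1 (0.07), Smc4 (0.07), Cenpf (0.06) and Nek2 (0.04). None was 1.5-fold apart, as were 2.73% of all genes lower and 1.53% higher. Relative to all genes the median turned to 0.01 with levels scaled to the median, and to 0.06 on deposited FPKM.

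In MP the members were close to EV. Their median log2 ratio was -0.06, against -0.04 for all genes. MP was below EV for 25 of 35 members, against 57.8% of all genes and 58.4% of genes at 10 or more. Birc5 (-0.29), Cdc20 (-0.22), Plk1 (-0.22), Kif23 (-0.20) and Mki67 (-0.20) were the lowest, and Smc4 (0.11), Nuf2 (0.10), Ect2 (0.08), Ttk (0.07) and Bub1 (0.06) the highest. The direction depended on the scaling: with levels scaled to the median all 35 were higher in MP, with a median of 0.37 against 0.06 for all genes. How many of all genes were higher in MP on that scale was not counted. None was 1.5-fold apart as reported, where 5.02% of all genes were lower and 1.15% higher by that much.

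MP and P carry labels that differ in Meis1. MP was above P for 33 of 35 members, against 55.8% of all genes and 71.8% of genes at 10 or more, with a median log2 ratio of 0.22 against 0.04 for all genes. Top2a (0.51), Ccnb1 (0.46), Kif20a (0.38), Anln (0.37) and Mad2l1 (0.36) had the highest ratios, all under 1.5-fold, where 1.44% of all genes were past it. Cenpa (-0.12) and Cdc25b (-0.01) were lower in MP, and Cdk1 (0.02), Aurkb (0.04) and Cdc25c (0.05) were nearly level. After quantile normalisation 24 members were higher in MP, with a median of 0.10 against 0.02 for all genes. The share of all genes higher in MP was not counted after that step. With levels scaled to the median, 21 members were past 1.5-fold, as were 25.1% of all genes. Because these 2 libraries were set across separately deposited tables, their ratio rests on the scaling.

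MP and M carry labels that differ in Prep1. MP was above M for 26 of 35 members, against 46.5% of all genes and 52.1% of genes at 10 or more. The median log2 ratio was 0.05 against -0.01 for all genes. Prc1 (0.24), Aurka (0.19), Racgap1 (0.17), Aurkb (0.17) and Kif20a (0.14) were the highest, and Cenpf (-0.19), Plk1 (-0.12), Kif2c (-0.09), Cdc25b (-0.08) and Nek2 (-0.08) the lowest. None was 1.5-fold apart, where 0.875% of all genes were higher and 3.14% lower by that much.

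**Figure D3:**
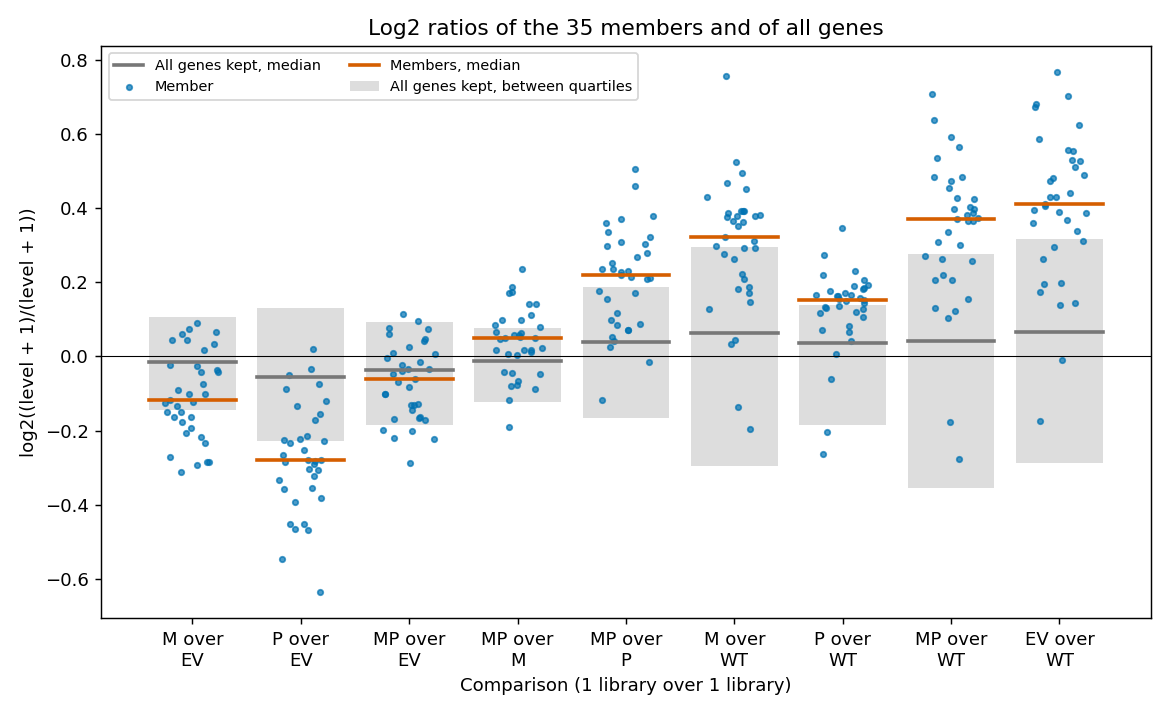
Log2 ratio of each of the 35 genes (points) in 9 comparisons of 1 library over 1 library (horizontal axis), with the members' median (orange line), the median of all genes kept (grey line) and the range between the quartiles of all genes (grey box). The members lie below 0 in P over EV and above 0 in MP over P and in the 4 comparisons with WT, with few exceptions.

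All 4 hypomorphic lines were set beside WT, and these 4 comparisons share the WT library. EV was above WT for 33 of 35 members, against 55.9% of all genes and 71.7% of genes at 10 or more. The median log2 ratio of EV over WT was 0.41 against 0.07 for all genes, and 25 of 35 members were above the upper quartile of all genes. Top2a (0.77), Kif20a (0.70), Mad2l1 (0.68), Anln (0.67), Cdc20 (0.62) and Mki67 (0.59) were 1.5-fold higher in EV, as were 9.52% of all genes. Cdc25b (-0.17) and Cenpa (-0.01) were lower in EV, and Nek2 (0.14), Cdc25c (0.15) and Cdk1 (0.17) were next. With levels scaled to the median, the members' median of 0.78 stood beside 0.68 for all genes, and 28 members were past 1.5-fold, as were 55.9% of all genes.

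MP was above WT for 33 members, against 53.6% of all genes and 70.6% of those at 10 or more, with a median of 0.37 against 0.04. Mad2l1 (0.71), Top2a (0.64) and Anln (0.59) were 1.5-fold higher in MP, as were 4.95% of all genes, with Ccnb1 (0.57) and Kif20a (0.53) next. Cdc25b (-0.28) and Cenpa (-0.18) were lower in MP, and Nek2 (0.11), Cdc25c (0.12) and Cenpf (0.13) came next. M was above WT for 33 members, against 55.9% of all genes and 69.9% of those at 10 or more, with a median of 0.32 against 0.06. In M only Mad2l1 (0.76) was past 1.5-fold, as were 6.78% of all genes, followed by Anln (0.53), Top2a (0.50), Ccnb1 (0.47) and Mki67 (0.45). Cdc25b (-0.20) and Cenpa (-0.14) were lower in M, with Aurkb (0.03), Cdc25c (0.04) and Prc1 (0.13) next. P was above WT for 32 members, against 56.9% of all genes and 70% of those at 10 or more, with a median of 0.15 against 0.04. Mad2l1 (0.35), Bub1b (0.27), Cdc20 (0.23), Anln (0.22) and Tpx2 (0.21) had the highest ratios of P over WT, and none was past 1.5-fold, as were 3.37% of all genes. Cdc25b (-0.26), Cenpf (-0.20) and Cenpa (-0.06) were lower in P, with Nek2 (0.01) and Ttk (0.04) nearly level. With levels scaled to the median, 28 members passed 1.5-fold in M over WT, 6 in P over WT and 34 in MP over WT, where 48.4%, 17.4% and 58.8% of all genes did. After quantile normalisation M had 28 members above WT, P had 30, MP had 31 and EV had 28. The share of all genes above WT was not counted on that scale. The members' medians shrank there, to 0.16 for M over WT (all genes 0.04) and 0.13 for P over WT (all genes 0.04). For MP over WT the median was 0.22 (all genes 0.04), and for EV over WT it was 0.24 (all genes 0.02).

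The authors' deposited table of M against EV marked 2 members as higher in M, and none as lower, among the 10 with test status OK, where 18% of the 5565 loci with that status were marked higher and 0.0539% lower. The authors' deposited tables marked 22 of 22 members with status OK as lower in P than in EV, against 98.7% of all such loci. They also marked 22 of 22 as lower in MP than in EV, against 99.2% of loci, and 23 of 23 as lower in WT than in EV, against 96.5% of loci. In the P, MP and WT tables nearly every locus was marked lower, and the members' share says nothing beyond that.

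Of the 35 genes, 6 were listed at more than 1 locus (Aurkb, Ccnb1, Ccnb2, Ect2, Smc2 and Top2a), with 10 further loci. The other genes of the list had 1 locus each, and no member was in a row that joins several genes. The further loci had lower levels than the loci used, up to 7.09 scaled units for Top2a in P, where its main locus had 9.53. Their order of the libraries was another one, though those of Ect2 were lowest in WT like its main locus. None of the 10 was lower in P than in EV, with a median log2 ratio of 0.26, where further loci of other symbols had a median of 0.15. All 10 were lower in MP than in P, with a median of -0.54, against -0.29 and 83.1% lower for other symbols. The loci of largest level, used for all values above, and these further loci thus ran in opposite directions in MP over P, as for Top2a and Ccnb1. With the loci of a symbol summed, no member was 1.5-fold lower in P than in EV.

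Other genes of cell division were read from lists of the machinery around the 35 genes. Over 92 such genes, P and WT were both below the other 3 libraries in 52 (56.5%), where the share was 49.5% among genes at 10 scaled units or more. Lower levels in P than in EV were seen for 72 of the 92 (78.3%), where 73.5% of genes at 10 or more were lower, with a median log2 ratio of -0.14. Higher levels in EV than in WT were seen for 74 (80.4%), where 71.7% of genes at 10 or more were higher, with a median of 0.23. These shares were near those of other genes of such levels. The medians of the 35 genes were -0.28 and 0.41.

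All 6 condensin subunits had P and WT lowest, with a median of -0.22 in P over EV. Ncapd2 (-0.43) and Ncaph2 (-0.29) had the lowest ratios of P over EV, and Ncapd3 (-0.06) and Ncapg2 (-0.12) the highest. Ncapd2, of condensin I, had 12.4 scaled units in P against 17.0 in EV, and 17.0 in EV against 10.9 in WT. Of 12 cohesin and cohesin protection genes, 10 had P and WT lowest, with a median of -0.27 in P over EV. Smc1a (-0.49), a core cohesin subunit, and Pds5a (-0.47), a cohesin regulator, had the lowest ratios. Sgol1 (0.10), shugoshin, which protects cohesin at centromeres, and Cdca5 (0.03), sororin, had the highest.

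Of 17 APC/C genes and regulators, 8 had P and WT lowest and 16 were lower in P than in EV, with a median of -0.21. Ube2s (-0.58), the enzyme that extends ubiquitin chains on APC/C substrates, and the subunit Anapc5 (-0.38) had the lowest ratios, and Anapc11 (0.05) and Pttg1 (-0.04), securin, the highest. Of 14 other spindle and cytokinesis genes, 9 had P and WT lowest, with a median of -0.20. Tacc3 (-0.45), a spindle microtubule protein, and Dlgap5 (-0.38) were the lowest there, and Troap (0.25) and Fam83d (0.20) the highest. Of 8 other mitotic kinesins, 6 had P and WT lowest and all 8 were lower in P than in EV, with a median of -0.10. Their ratios ran from -0.34 for Kif22 and -0.26 for Kif2a to -0.05 for Kif15 and -0.01 for Kif18a.

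P and WT were lowest in 9 of 24 other kinetochore and checkpoint genes, with a median of -0.10 in P over EV and 0.12 in EV over WT. Spc24 (0.31), a subunit of the same NDC80 complex as Ndc80 and Nuf2, and Nsl1 (0.30), of the Mis12 complex, had the highest ratios of P over EV, and Mad1l1 (-0.34), which binds Mad2 at kinetochores, and Cenpl (-0.26) the lowest. Of 11 entry regulators, 4 had P and WT lowest, with medians of -0.03 and 0.03. Pkmyt1 (0.33), a kinase that inhibits CDK1, and Ccnf (0.30), cyclin F, were the highest, and Cks1b (-0.36), a small CDK-binding protein, and Melk (-0.14) the lowest. Ccnf was at low levels, with 2.42 scaled units in P and 1.78 in EV.

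DNA replication genes, which act in S phase rather than mitosis, had medians close to those of the 35 genes: -0.25 in P over EV, 0.24 in MP over P and 0.44 in EV over WT. P and WT were lowest in 15 of 18. Uhrf1 (-0.56), which helps copy DNA methylation, and Mcm3 (-0.55), of the replicative helicase, had the lowest ratios of P over EV, and Gins1 (0.05) and Pola1 (-0.09) the highest. The order of the libraries seen for most of the 35 genes was thus also that of most of these replication genes.

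**Figure D4:**
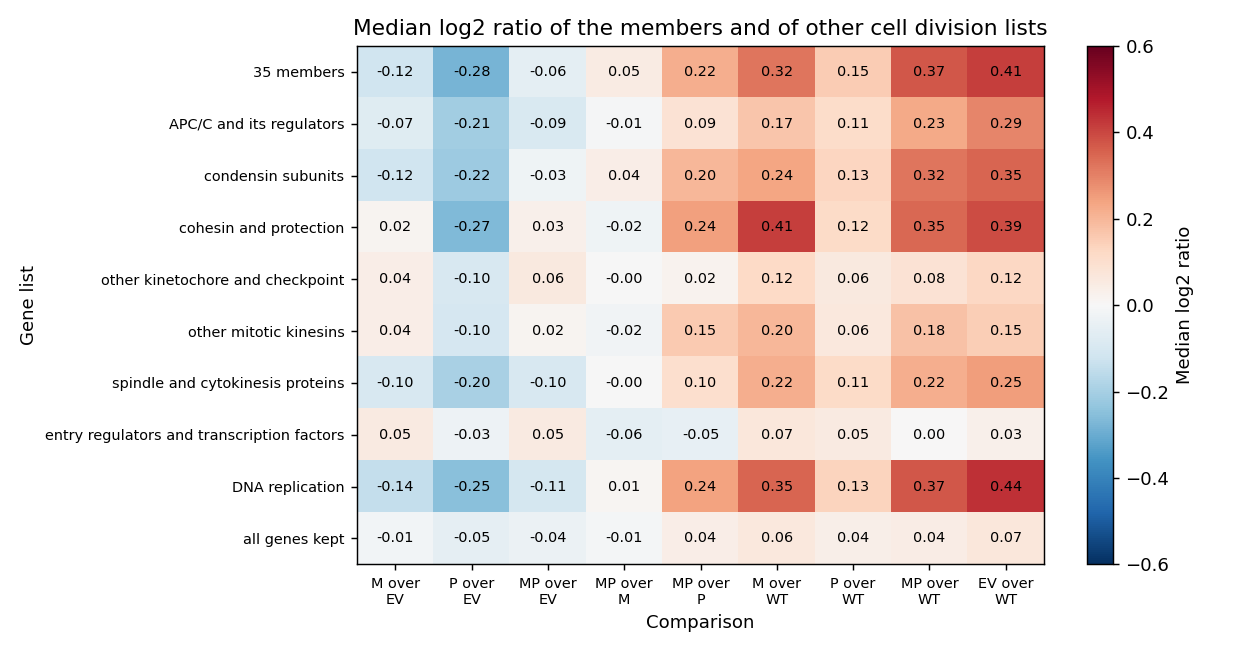
Median log2 ratio (colour and number) of the 35 genes, of 8 other lists and of all genes kept (rows) in 9 comparisons of 1 library over 1 library (columns). The rows of the 35 genes, condensin, cohesin and DNA replication have medians of -0.22 to -0.28 in P over EV and 0.35 to 0.44 in EV over WT, and the row of entry regulators is near 0.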

How the data were processed

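Total RNA of 5 cultures was sequenced, 1 library per group, and the labels gave the groups. The authors deposited FPKM per locus in 4 tables, each of EV beside 1 other library. Per the submitters' processing notes, reads were handled with TopHat, Cufflinks and Cuffdiff on mm9. Versions, annotation, filters and depth are not given in the sources used here. The deposited q-values (the authors' adjusted p-values) entered only through the authors' calls at 0.05.

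FPKM were scaled so that the upper quartile of 22338 single-gene loci, those reaching 1 FPKM in some library, was 10. EV was read from the table shared with M. Where a symbol had several loci, that with the greatest mean of log2(FPKM + 1) was used. A gene was kept at 1 scaled unit or more in 1 of the 2 libraries, and ratios used a pseudocount of 1. The calculation was tested on simulated data (Python 3.11.15, numpy 2.4.6, pandas 2.3.3). The simulated libraries were all made from the EV levels, so differences in range between libraries were not part of that test. How reads of near-identical or overlapping genes were assigned is not known.

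The members and lists were chosen with earlier results of these data known. Named genes were Ccnb1, Cdk1, Plk1, Top2a, Mki67, the 5 highest and 5 lowest ratios per comparison and, of other lists, the 2 at each end of P over EV. Further members were described for their role. Alternatives changed the pseudocount, filter, scaling, locus and EV column. Listed genes without a symbol match were not analysed here.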

Additional observations from a re-analysis of the deposited data

Results flagged for a closer look

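The same label difference, added Meis1, went with opposite directions of the members' median in the 2 pairs of lines on the scaling used. The members' median log2 ratio was 0.22 for MP over P and -0.12 for M over EV, and the median of the per-gene difference between these log2 ratios was 0.29. The difference was above 0 for 34 of 35 members, from -0.07 for Cdk1 to 0.78 for Top2a. The combination of MP above P and M below EV was seen for 25 of 35 members, against 25.8% of 11866 genes. Its share among genes at 10 or more was not counted. Over all genes the median difference was 0.04, with 56.2% above 0. Over the 6902 genes at 10 scaled units or more it was 0.11, with 69.5% above 0. After quantile normalisation the members' median difference was 0.14, with 29 of 35 above 0, against a median of -0.003 over all genes. On that scale the share of all genes above 0 was not counted. With levels scaled to the median the members' median difference was 0.64, against 0.44 over all genes. The members' medians were then 0.63 for MP over P and -0.07 for M over EV, again opposite. Relative to all genes they were 0.23 and 0.010, so that the directions were not opposite on that measure. The difference was not tested, since each line has 1 library, and Pknox1 was low in both MP and P.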

How the results depend on the processing

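No paired analysis was possible because each group has 1 library. Values here are the members' median log2 ratio minus that of all genes. Over 9 comparisons and 12 settings, 81 of 103 values stayed within 0.1 of those reported or, as percentile ranks, kept the sign, except MP over EV (0.76 percentile points). Unscaled FPKM gave 0.055 for M over EV and -0.22 for MP over M (both with the sign changed). The same setting gave -0.75 for P over EV, -0.53 for MP over EV, 0.80 for M over WT and 0.99 for EV over WT. Scaling to the median gave 0.010 for M over EV, 0.043 for P over EV and 0.31 for MP over EV (all with the sign changed). For EV over WT it gave 0.10. Without a filter the values were -0.085 for P over EV, 0.13 for MP over EV (sign changed) and 0.21 for EV over WT. Settings chosen after seeing the data follow. Quantile normalisation gave -0.10 for P over EV, 0.12 for M over WT, 0.18 for MP over WT and 0.22 for EV over WT. Genes at 10 or more gave 0.15 for M over WT, 0.20 for MP over WT and 0.23 for EV over WT. The 9 members with status OK in all 4 tables gave 0.061 for MP over P and 0.22 for MP over WT. With scaling to the median, 21 members were 1.5-fold higher for MP over P (25.1% of all genes), 28 for M over WT (48.4%), 6 for P over WT (17.4%), 34 for MP over WT (58.8%) and 28 for EV over WT (55.9%), against 0, 1, 0, 3 and 6 as reported. The cause was not tested. Rows that join a member with other genes gave no value, as there were 0. Depth is unknown, so no counting error could be given.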
